A study of Mus musculus with 2 samples.

Results

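The mitochondrial ribosomal protein genes were taken as the genes whose symbol in the deposited table starts with Mrpl (large subunit) or Mrps (small subunit) followed by a digit. There were 74 of them among 22049 genes, 45 named for the large and 29 for the small subunit. Where a gene had several probe sets, the brightest one on average stands for it. The cells were mouse bone-marrow-derived macrophages of the C57BL/6J strain, grown from marrow for 7 days in medium conditioned by L929 fibroblasts. Cells of the wild type (WT) and of mice without Oasl1 (Oasl1-/-), an oligoadenylate synthetase-like gene, were treated for 9 h with poly(I:C), a double-stranded RNA made in vitro, at 5 µg/ml. For each genotype, RNA from 3 samples was mixed and hybridised to a single array (Affymetrix Mouse Gene 1.0 ST), and no array of untreated cells was analysed here. With 1 array per genotype, differences have no replicate check and were not tested.

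Mitochondria keep ribosomes of their own, which translate the few membrane proteins of the respiratory chain and ATP synthase encoded in mitochondrial DNA. All the protein subunits of these ribosomes are encoded in the nucleus, made in the cytosol and imported. Some descend from proteins of bacterial ribosomes, while others are found only in mitochondrial ribosomes. Respiration and mitochondrial signalling bear on how macrophages respond to activation. A double-stranded RNA sensor pathway that poly(I:C) can engage signals from the outer mitochondrial membrane.

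All values are log2 signals, and differences are Oasl1-/- minus WT on that scale. Oasl1 itself had 12.59 in WT and 11.13 in Oasl1-/-, 2.76-fold lower. Genes are called above the floor here if they exceeded the 95th percentile of the negative control probe sets on at least 1 array, which was 7.75 for WT and 7.68 for Oasl1-/-. That held for 6377 of the genes, with a median difference of -0.044. All 11 macrophage markers measured were above the floor, from 9.51 to 12.85 in WT and from 9.54 to 12.88 in Oasl1-/-. No T cell, B cell, dendritic cell or fibroblast marker of 6 each, and no erythroid marker of 5, was above it. Those above it were Klrk1 of 5 natural killer cell markers (8.72 and 8.58), Kdr of 5 endothelial markers (10.81 and 11.04) and, in Oasl1-/- only, Ngp of 10 neutrophil markers (6.90 and 7.79). In mixed cultures, fewer cells of a type and less RNA per cell cannot be told apart. For 343 genes with 2 probe sets above the floor, the differences given by the pair were 0.058 apart in the median and 0.23 apart at the 90th percentile, a technical spread that holds none of the spread between samples.

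Most mitochondrial ribosomal protein genes had slightly lower signals in the Oasl1-/- macrophages, and none differed by much. Of the 52 members above the floor, 43 were lower by some amount, against 63.5% of all genes above the floor. Their median difference was -0.092, and they ran from -0.35 for Mrpl36 to 0.15 for Mrps16. By the measured signals 5 members (9.62%) were at least 1.2-fold lower, Mrpl36, Mrpl52, Mrpl40, Mrpl14 and Mrps18b, near the background of 8.89% of all genes. Mrpl14 was below the floor on the Oasl1-/- array and has only a bound under 1.2-fold, so 4 members remain when values below the floor are set to the floor, against 7.73% of all genes counted that way. No member was at least 1.2-fold higher (2.65% of all genes). None was at least 1.5-fold lower (0.517% of all genes) or 1.5-fold higher (0.361%).

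Among genes above the floor, dim ones had lower values more often than bright ones, while the medians of the members did not follow brightness in order. With a mean signal from 7.5 to 8, 67.0% of all genes were lower, at a median of -0.082, and 13 of 15 members were, at a median of -0.13. Genes with a mean signal from 8 to 8.5 had a median difference of -0.084 and were lower in 71.3% of cases, and the 12 members in that range had a median of -0.080. From 8.5 to 9 both medians were close, -0.070 for all genes and -0.071 for 12 members. From 9 to 10 the median of all genes was -0.044 and that of 9 members -0.10. From 10 to 14 it was -0.0084 for all genes and -0.048 for 4 members. When the trend of the difference on mean signal was removed by loess, 31 of the 52 members stayed below 0, against 49.6% of all genes, and their median was -0.021. Only Mrpl36 was then still at least 1.2-fold lower, against 4.56% of all genes. The floor also matters for the count, because 3 members passed it on the WT array alone and 1 on the Oasl1-/- array alone. Over all 74 members, with no floor, 54 were lower and the median was -0.080. Counted that way, 46.7% of all genes were lower, at a median of 0.016. Of the 22049 genes 15672 were not above the floor, against 22 of the 74 members, so these shares are not matched in brightness. The same limit holds wherever 46.7% is given below.

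**Figure D1:**
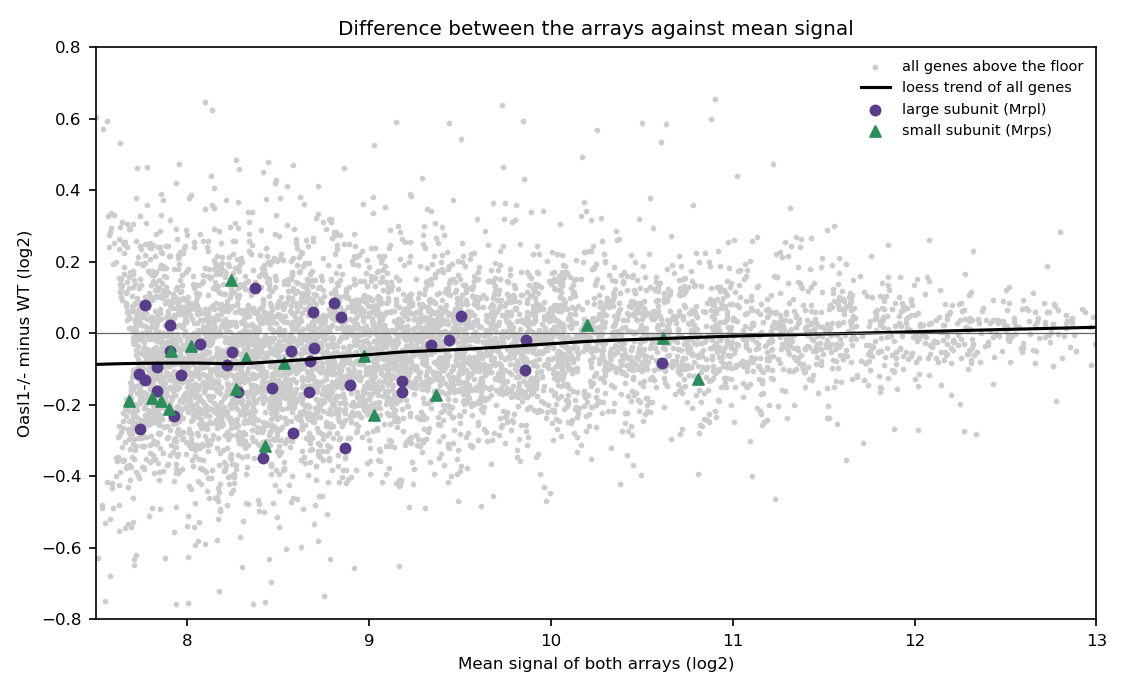
Difference between the arrays (Oasl1-/- minus WT, log2) against the mean signal of both arrays (log2), with all genes above the floor in grey, large-subunit members as circles, small-subunit members as triangles and the loess trend of all genes as a line. Most of the 52 members lie below 0 within the grey cloud, where the trend itself is below 0, and 43 genes lie outside the plotted range.

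The sequence just before the transcription start is shown for the 5 members named above and for a pair of members that share it. RefSeq (GRCm38.p6) gives a window of 250 bases before to 50 after the start for 69 of the 74 members, 75 windows in all. Each window was searched on both strands for short runs of letters, all but TATAAA bound by factors known to regulate genes of mitochondrial proteins. These were CCGGAAG for the ETS family, to which GABP belongs, GCGC, NN and GCGC in a row (the long form) and GCATGCGC (the short form) for NRF1, which a site can hold together, AAGATGGCG for YY1, CACGTG (the E-box, bound by MYC) and TATAAA. Capitals mark matches on either strand, and each sequence ends at the base before the start, 5′ to 3′ on the strand of the gene.
Mrpl36, chr13:73330959-73331008, plus strand: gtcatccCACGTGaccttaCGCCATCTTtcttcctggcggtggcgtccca
Mrpl52, chr14:54426659-54426908, plus strand: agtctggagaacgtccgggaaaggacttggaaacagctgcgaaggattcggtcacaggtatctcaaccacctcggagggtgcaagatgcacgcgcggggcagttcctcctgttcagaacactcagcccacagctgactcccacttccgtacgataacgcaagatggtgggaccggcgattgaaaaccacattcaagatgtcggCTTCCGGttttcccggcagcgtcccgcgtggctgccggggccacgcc
Mrps18b, chr17:35916441-35916690, minus strand: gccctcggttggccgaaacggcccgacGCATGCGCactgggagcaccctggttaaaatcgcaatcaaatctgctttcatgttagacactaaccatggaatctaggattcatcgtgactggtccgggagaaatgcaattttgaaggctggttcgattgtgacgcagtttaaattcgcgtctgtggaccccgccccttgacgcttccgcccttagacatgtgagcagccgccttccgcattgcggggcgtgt
Mrpl40, the bases between its start and that of Hira, chr16:18876638-18876749, minus strand: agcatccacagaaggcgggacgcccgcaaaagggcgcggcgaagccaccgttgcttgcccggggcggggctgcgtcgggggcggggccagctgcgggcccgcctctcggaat
Mrpl14, the bases between its start and that of Tmem63b, chr17:45686219-45686348, plus strand: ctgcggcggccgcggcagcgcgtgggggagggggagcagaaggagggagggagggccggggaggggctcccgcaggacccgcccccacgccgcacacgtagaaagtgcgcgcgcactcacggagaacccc
Mrps11, the bases between its start and that of Mrpl46, chr7:78783090-78783130, plus strand: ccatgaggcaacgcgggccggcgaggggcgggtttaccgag
The Mrpl36 stretch holds an E-box and the YY1 letters, read on the other strand, and the Mrpl52 stretch the ETS letters on the other strand. The Mrps18b stretch holds the short NRF1 form, and none of the letters was found in the stretches of Mrpl40, Mrpl14 and Mrps11. These stretches differ in length, with 250 bases for Mrpl52 and Mrps18b, 130 for Mrpl14, 112 for Mrpl40, 50 for Mrpl36 and 41 for Mrps11. The Mrps18b match starts 223 bases before the start of the gene, farther than the shorter stretches reach, so their matches cannot be compared.

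The members' promoters differed from the run of promoters in these letters. The ETS letters stood in 26 of 75 member windows (34.7%) against 11.6% of 21262 windows of protein-coding genes. The YY1 letters stood in 10.7% against 1.83%, the long NRF1 form in 18.7% against 8.57%, and the short form in 10.7% against 3.51%. The E-box was near its background, at 9.33% against 7.84%, and TATAAA stood in 6.67% against 12.6%. Among the members above the floor, the 17 with the ETS letters had a median difference of -0.14 and 14 of them were lower, while the 30 without had -0.083 and 27 were lower. The 9 with the long NRF1 form had a median of -0.042 and the 38 without -0.13. For the short form the medians were -0.077 (5 with) and -0.12 (42 without), and for YY1 -0.14 (4) and -0.10 (43). For the E-box they were -0.13 (5) and -0.096 (42), and for TATAAA -0.16 (4) and -0.089 (43). A match in letters is not a bound site, and no difference between these medians was tested.

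The large subunit holds the centre that joins amino acids, and of its 35 members above the floor 28 had lower signals in Oasl1-/-, at a median difference of -0.089. Mrpl36 (NM_053163, chromosome 13, 73468457 to 73469626 in the NCBIM37 build), which has a bacterial counterpart, had 8.59 in WT and 8.24 in Oasl1-/-, 1.27-fold lower. Mrpl52 (NM_026851, chromosome 14, 55045746 to 55048587), found only in mitochondrial ribosomes, had 9.03 and 8.71, 1.25-fold lower. Mrpl40 (NM_010922, chromosome 16, 18872310 to 18876730), part of the central protuberance in the human structure, had 8.72 and 8.44, 1.21-fold lower. These 3 were above the floor on both arrays, with differences of -0.35, -0.32 and -0.28.

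Mrpl14, which lies on the face that meets the small subunit, had 7.87 in WT and 7.60 in Oasl1-/-. It was below the floor on the Oasl1-/- array, so that it is at least 1.14-fold lower. Mrpl21 had 8.04 and 7.81 (difference -0.23). Mrpl1, a protein of the stalk at which transfer RNA leaves the ribosome, had 8.36 and 8.19, and Mrpl2, next to the catalytic centre, had 8.75 and 8.58. The last pair had differences of -0.17 and -0.16. Mrpl48 (9.26 and 9.10, difference -0.17) is also a protein of the central protuberance, but its bright probe set lies away from the gene. The other 20 large-subunit members that were lower lay between -0.16 (Mrpl46, 7.91 and 7.75) and -0.020 (Mrpl24, 9.45 and 9.43). Among them Mrpl16 was above the floor in WT alone (7.79 and 7.68, at least 1.08-fold lower).

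Higher in Oasl1-/- were 7 large-subunit members, all by small amounts. Mrpl13 had 8.31 in WT and 8.43 in Oasl1-/- (0.13 apart). Mrpl35 had 8.77 and 8.85 (0.084), and Mrpl4, whose bacterial counterpart lines the tunnel through which the new chain leaves, had 8.66 and 8.72 (0.060). Mrpl44, a protein with a fold like that of RNase III and a human cardiomyopathy gene, had 8.82 and 8.87 (0.045). Mrpl30 had 9.48 and 9.53 (0.048) and Mrpl34 had 7.89 and 7.91 (0.022). Mrpl54 had 7.73, below the floor, and 7.80, at least 1.04-fold higher.

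**Figure D2:**
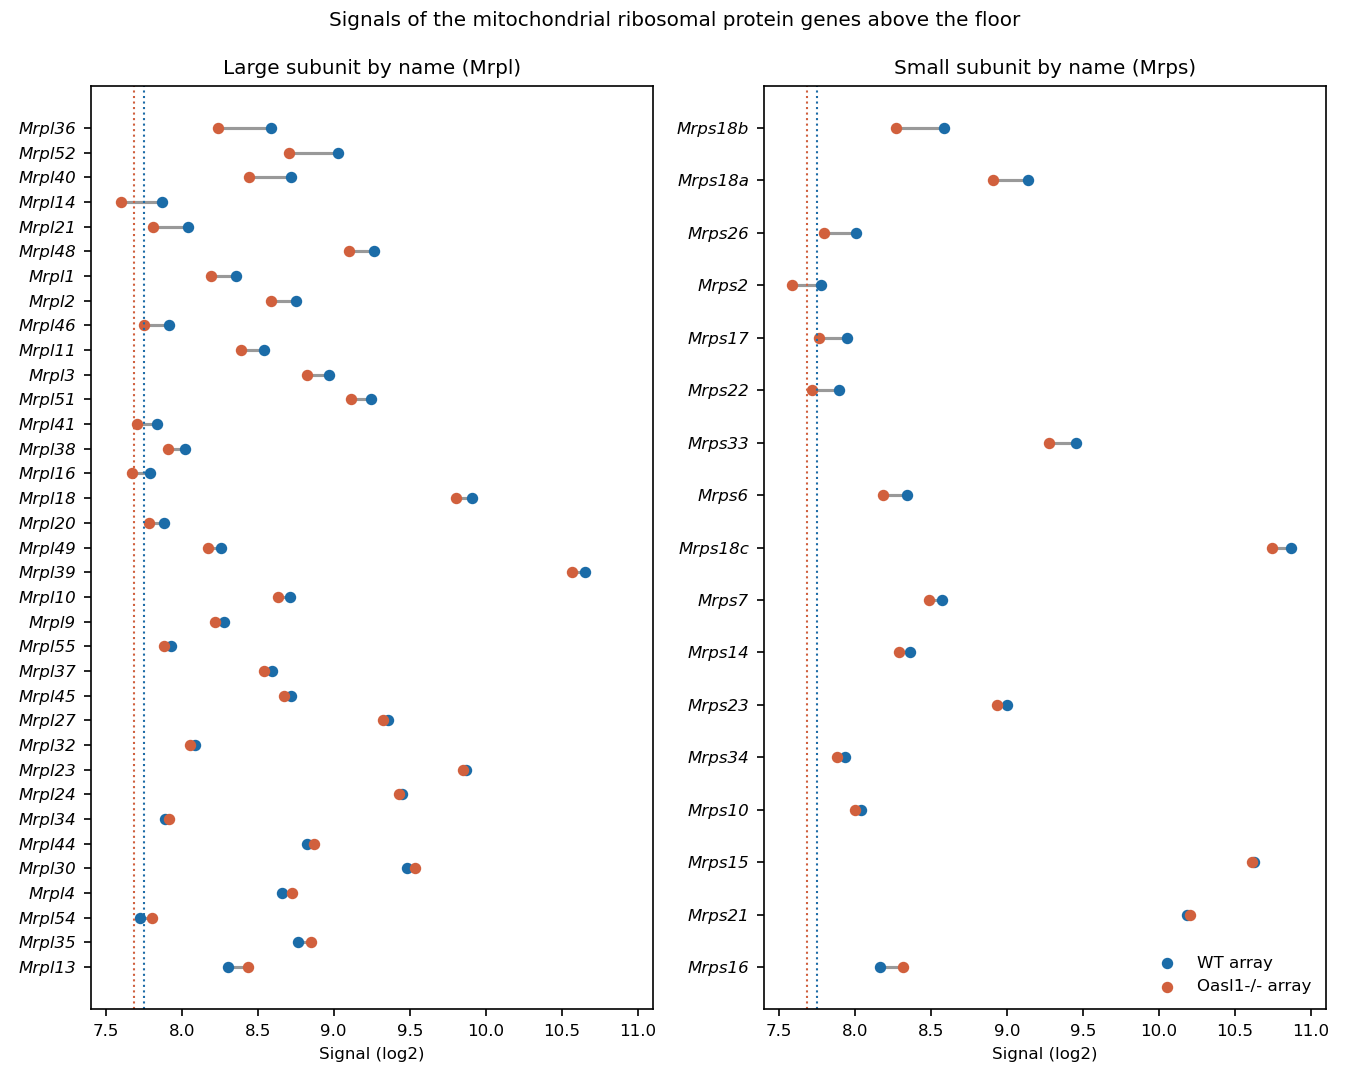
Signal (log2) of each of the 52 members above the floor on the WT array (blue) and the Oasl1-/- array (orange), large subunit on the left and small subunit on the right, ordered by their difference, with the floor of each array as a dotted line. The orange point lies to the left of the blue one for 28 of 35 large-subunit and 15 of 17 small-subunit members; levels of different genes are not comparable.

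The small subunit, which reads the messenger RNA, had 17 members above the floor, of which 15 were lower, with a median difference of -0.13. Mrps18b (NM_025878, chromosome 17, 36047326 to 36053325) had 8.58 in WT and 8.27 in Oasl1-/-, 1.25-fold lower. Mrps26, found only in mitochondrial ribosomes, had 8.01 and 7.79, a difference of -0.21. Mrps17, which has a bacterial counterpart, had 7.95 and 7.76 (-0.19). Mrps22, a human disease gene of mitochondrial translation, had 7.90 and 7.72 (-0.18). Mrps2 had 7.78 and 7.59, the latter below the floor, and was at least 1.07-fold lower. Mrps33 had 9.45 and 9.28 (-0.17) and Mrps6 had 8.34 and 8.19 (-0.16). Beside these and Mrps18a, 7 more members were lower, by amounts between -0.13 and -0.013 (Mrps15, 10.62 and 10.61). The members that were higher were Mrps16, a human disease gene too, with 8.17 and 8.31 (0.15), and Mrps21, with 10.19 and 10.21 (0.022).

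Mrps18a, Mrps18b and Mrps18c encode paralogs of a single bacterial protein, and in the mammalian ribosome they take different places, Mrps18a in the large subunit. All of them were lower in Oasl1-/- by differing amounts. Mrps18a had 9.14 in WT and 8.91 in Oasl1-/- (-0.23). Mrps18c had 10.87 and 10.74, a difference of -0.13, beside -0.32 for Mrps18b.

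The order of the large and small subunits depended on the floor. Above it the large-subunit median was 0.038 higher than that of the small subunit. Without the floor the order turned, with medians of -0.089 for 45 large-subunit and -0.065 for 29 small-subunit members, a difference of -0.025. Gene names do not follow the structure everywhere, since Mrps18a and Mrps30 encode proteins of the large subunit. By place in the structure the medians above the floor were -0.092 for 36 and -0.11 for 16 members. The 34 members with a bacterial counterpart had a median of -0.080 and 27 were lower. The 18 found only in mitochondrial ribosomes had a median of -0.12 and 16 were lower. That gap of 0.043 became 0.00056 when probe sets on another chromosome than the gene were left out.

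The other 22 members were not above the floor on either array, which gives them no fold. Of these, 11 were lower and 11 higher, while 46.7% of all genes were lower without a floor. That share takes in the 6377 genes above the floor, of which 63.5% were lower, so it is not a background for genes below it. The 10 of the large subunit were Mrpl15 (7.26 in WT and 6.90 in Oasl1-/-), Mrpl50 (7.49 and 7.18), Mrpl43 (7.501 and 7.254), Mrpl17 (6.31 and 6.11), Mrpl33 (6.77 and 6.58), Mrpl19 (7.63 and 7.57), Mrpl12 (7.37 and 7.35), Mrpl47 (7.10 and 7.18), Mrpl28 (7.37 and 7.47) and Mrpl22 (6.08 and 6.19). Mrpl12, a protein of the stalk that binds translation factors and in humans also a partner of the mitochondrial RNA polymerase, was among these, so that no comparison of it can be made. The 12 of the small subunit were Mrps30 (7.52 and 7.30), Mrps31 (7.00 and 6.86), Mrps35 (6.36 and 6.23), Mrps9 (7.61 and 7.58), Mrps5 (7.09 and 7.11), Mrps28 (7.56 and 7.58), Mrps12 (6.71 and 6.74), Mrps36 (7.09 and 7.14), Mrps27 (6.64 and 6.74), Mrps25 (7.23 and 7.35), Mrps24 (7.33 and 7.46) and Mrps11 (6.41 and 6.64). Mrps36 is now known as a subunit of the oxoglutarate dehydrogenase complex rather than of the ribosome.

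The probe set that represents a member did not always lie at the gene. For 5 members the brighter probe set was on another chromosome than the gene, namely Mrpl27, Mrpl41, Mrpl48, Mrpl51 and Mrps33. That of Mrps10 lay on chromosome 17 but at 65787044 to 65787983, on the other strand from its second probe set at 47505841 to 47515630. In all, 12 members had 2 probe sets, which gave differences of the same sign for 9. Mrps33 had -0.17 on chromosome 7 and -0.15 at its own chromosome 6, both above the floor. Mrpl27 had -0.034 on chromosome 18 and -0.15 on its own chromosome 11 (8.46 and 8.32). Mrpl41 had -0.13 (7.84 and 7.70) on chromosome 7, but its own probe set on chromosome 2, below the floor, had 6.01 and 6.27, a difference of 0.27. Mrps10 had -0.036 and 0.056. The largest gap, 0.59, was that of Mrps30, with -0.22 and, for a probe set on the opposite strand that overlaps the start of the first and was below the floor, 0.37. Without probe sets off the gene's chromosome 49 members were above the floor, 40 of them lower, with a median of -0.089.

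**Figure D3:**
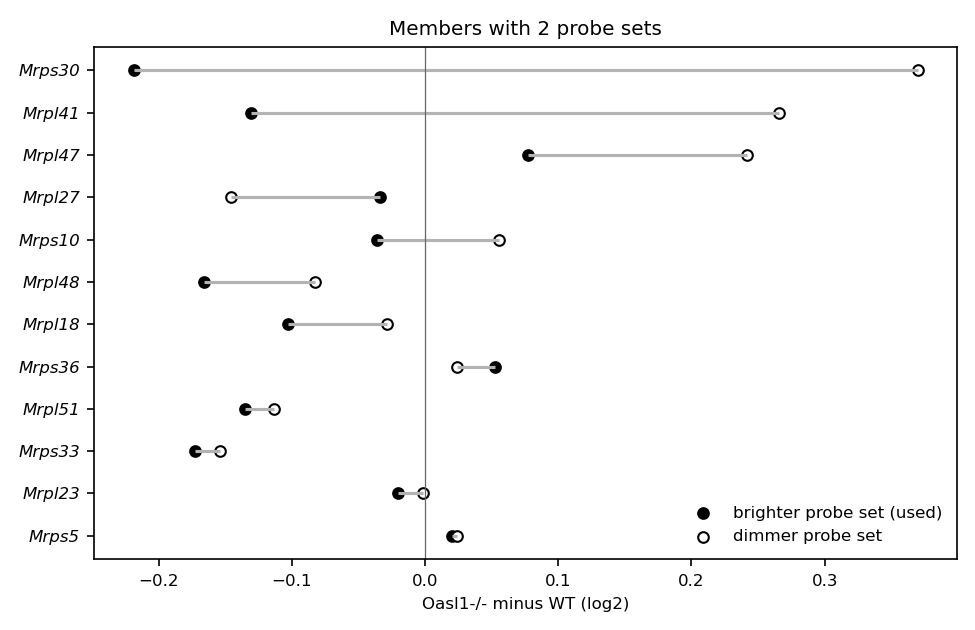
Difference (Oasl1-/- minus WT, log2) of the brighter probe set (filled) and the dimmer one (open) for the 12 members with 2 probe sets, ordered by the gap between them. The gap runs from 0.0036 for Mrps5 to 0.59 for Mrps30, and 3 members have points on opposite sides of 0.

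Oasl1 lies on chromosome 5, where 4 members lie too. The nearest, Mrps18c, lay 14.1 Mb from Oasl1. Mrps17 lay 14.8 Mb away, Mrpl1 18.7 Mb and Mrpl33, not above the floor, 83.4 Mb. The 3 above the floor had differences between -0.19 and -0.13, where 63.5% of all genes were lower by some amount, and none of them was at least 1.2-fold lower.

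Many members share their start region with a gene on the opposite strand. Of 69 members with a RefSeq window, 24 (34.8%) had a protein-coding neighbour whose start lay head to head within 1000 bases, against 8.48% of 17491 genes. In 8 such pairs both genes were above the floor, and in 5 both were lower, against 47.8% of 134 such pairs over all genes. Mrpl14 (7.87 and 7.60) and Tmem63b (7.97 and 7.61), 131 bases apart, were both below the floor in Oasl1-/-. They passed it in WT alone, so this pair could enter the count only as lower. The share over all pairs used the same floor, and no count with the floor on both arrays was made. Mrpl18 and the chaperonin gene Tcp1 had -0.10 each (9.91 and 9.81, 10.75 and 10.65). Mrpl49 and Fau, which encodes a cytosolic ribosomal protein, had -0.089 and -0.082. Mrps7 and Gga3 had -0.083 and -0.12, and Mrpl32 and the proteasome gene Psma2 -0.031 and -0.14. In 3 pairs the signs differed, as for Mrps18b (-0.32) and Ppp1r10 (8.88 and 8.98, difference 0.093). The others were Mrpl30 with Mitd1 (0.048 and -0.086) and Mrpl41, at its probe set on chromosome 7, with Pnpla7 (-0.13 and 0.16). The Mrpl41 probe set on its own chromosome 2, below the floor, had 0.27, the same sign as Pnpla7. Mrpl46 and Mrps11 are both members, with starts 42 bases apart, and had -0.16 and 0.23, but Mrps11 was not above the floor.

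Other proteins of mitochondrial translation differed between lists. Of 7 ribosomal proteins with other names on the array, 2 were above the floor, Ict1 (now Mrpl58, a peptide release factor of the large subunit) with 7.98 and 7.87 and Aurkaip1 with 9.44 and 9.50. Of those below it, Mrp63 (now Mrpl57) had 6.64 and 6.24, Ptcd3 7.08 and 6.78 and Dap3 7.64 and 7.36. Without the floor 6 of the 7 were lower, at a median of -0.14, against 46.7% of all genes. Of 21 assembly factors, 5 were above the floor, 3 of them lower, with a median of -0.026. Mterfd1 (now Mterf3), a factor needed to assemble the large subunit, had 8.39 and 7.97, a difference of -0.42, while Spg7, a protease that trims Mrpl32, had -0.085 and the RNA methyltransferase Nsun4 0.074. Of 12 translation factors, 7 were above the floor and 6 of these (85.7%) lower, with a median of -0.063. Without the floor 10 of the 12 were lower, at a median of -0.17, against 46.7% of all genes. With the trend on mean signal removed 3 of the 7 were lower, against 49.6%. Mtfmt, which formylates the initiator methionine, was above the floor in WT alone (7.80 and 7.37, at least 1.08-fold lower). The initiation factor Mtif2 had 8.59 and 8.33 (-0.26) and the export factor Oxa1l 9.08 and 9.01 (-0.075).

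The genes that copy and express mitochondrial DNA went both ways. Of 13 measured, 6 were above the floor and 3 were lower, with a median of 0.026. Tfam, which packages mitochondrial DNA, had 8.22 and 7.96 (-0.25), Lrpprc, which stabilises its messenger RNAs, had 8.10 and 8.23 (0.13) and Pnpt1 had 10.29 and 10.40 (0.11). Of 13 transcriptional regulators of mitochondrial biogenesis, 7 passed the floor and all 7 of these were lower, against 63.5% of all genes, at a median of -0.20. Without the floor 10 of the 13 were lower, against 46.7% of all genes, at a median of -0.14. With the trend on mean signal removed, 6 of the 7 stayed below 0, against 49.6% of all genes, at a median of -0.13. Gabpa, the DNA-binding subunit of GABP, had 9.30 and 8.92, a difference of -0.38, Gabpb1, its partner, had 8.42 and 8.19 (-0.22) and Hcfc1 had 8.83 and 8.63 (-0.20). Nrf1 was not above the floor (7.14 and 7.31), nor was Myc (6.52 and 6.17).

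The members had a lower median than the subunits of oxidative phosphorylation and the cytosolic ribosomal proteins. The 67 nuclear-encoded subunits of oxidative phosphorylation above the floor differed by 0.012 in the median and 31 were lower, with Cox6a1 at 0.43, Ndufa5 at 0.30 and Ndufa12 at 0.27. The 79 genes with Rpl or Rps symbols above the floor, mostly of cytosolic ribosomes, had a median of -0.026 and 52 were lower, with Rps19 at 0.20 and Rplp0 at -0.20. Rpl14, above the floor in WT alone (7.95 and 7.64), was at least 1.204-fold lower. For most of the 79, Rplp0 among them, the probe set used lay on another chromosome than the gene. Both families were brighter, with median signals of 9.76 and 11.4 against 8.44 for the members, and with the trend on mean signal removed the medians were 0.034 and -0.016, beside -0.021 for the members. Of 11 cell division genes 8 passed the floor, at a median of 0.12, and 1 was lower, with Ccnb1 at 0.27, Ccnb2 at 0.21 and Aurkb at 0.20. The summed levels of all 11 were 11.54 in WT and 11.67 in Oasl1-/-. The part of proliferation in the members' values was not tested.

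**Figure D4:**
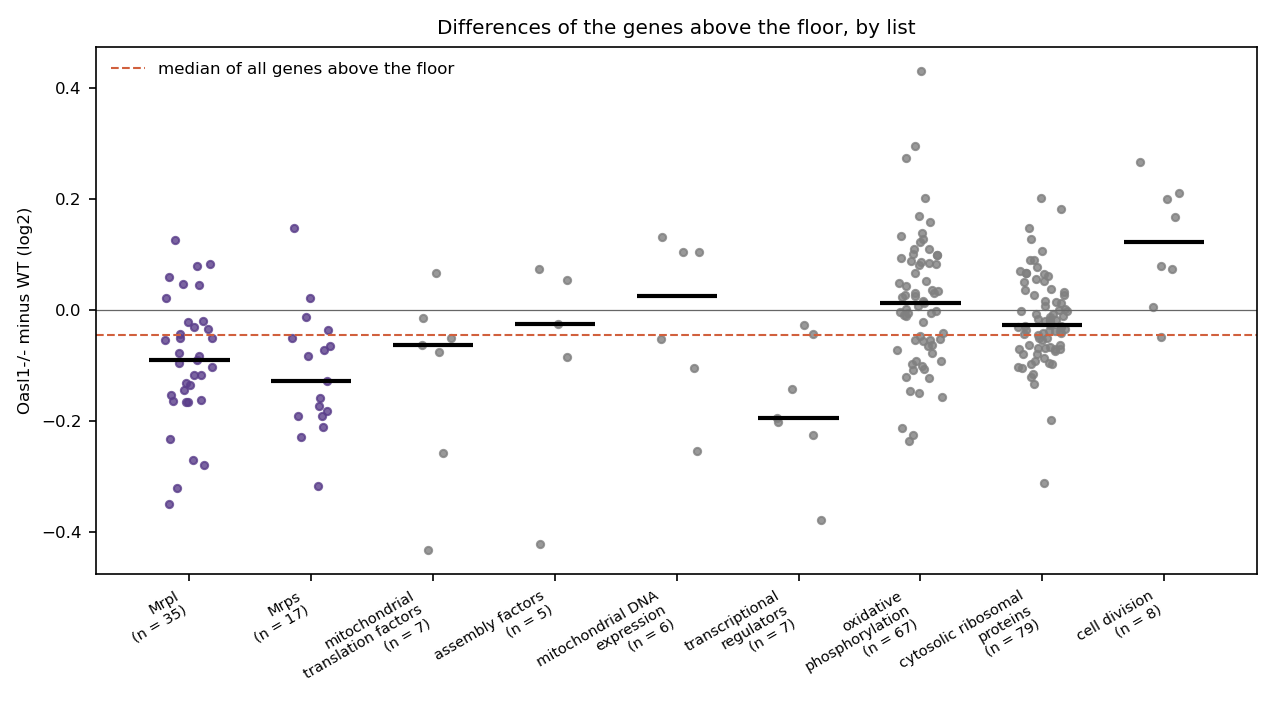
Difference (Oasl1-/- minus WT, log2) of each gene above the floor in the large-subunit (Mrpl) and small-subunit (Mrps) members and in 7 related lists, with the median of each as a bar and the median of all genes above the floor, -0.044, as a dashed line. The bars of both subunits, -0.089 and -0.13, lie below the dashed line, and that of oxidative phosphorylation, 0.012, above it; the lists differ in mean signal.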

How the data were processed

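The deposited log2 signals were made by the authors with GCOS and RMA (background correction, normalization and summary per probe set), per the submitters' processing notes, which give no version. The sources do not say if RMA was run on both arrays jointly. RMA compresses differences of dim probe sets, and the number of arrays limits the precision. The authors' log2 ratio equalled the difference of the deposited columns to within 1.8e-15, and the second deposited table differed from the first by 0.

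Of 35556 probe sets, 25305 carried 1 symbol, also where it was written several times, 2 several and 10249 none. Coordinates are the table's (NCBIM37), and gene chromosomes came from RefSeq GRCm38.p6 by symbol for all 74 members. The floor used 5267 intron and antigenomic probe sets. Between the arrays the intron probe sets differed by -0.16 and the antigenomic ones by 0.14 in the median. Members, lists, thresholds and alternatives were chosen with earlier results of these data known. Named are the 8 members of each subunit farthest from 0 in each direction, members below the floor, on chromosome 5 or with probe sets of opposite sign, and the 3 genes of each list farthest from 0. Mrps15, Mrpl24, Mrpl46 and the list genes below the floor were chosen after their values were seen. The counting and the loess (span 0.3) were tested on simulated data. Python 3.11.15, pandas 2.3.3 and statsmodels 0.14.6 were used.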

Additional observations from a re-analysis of the deposited data

How the results depend on the processing

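With 1 array per genotype no result has a p-value or a replicate left out, and settings were compared by values (medians within 0.05, counts within 1.5 times). No paired analysis was possible because each genotype has 1 array. Of 147 recomputed counts and medians over 13 alternatives, 126 stayed within these limits. Some could not move, because the second deposited table equalled the first and centring cannot change a gap between medians. The limit of 0.05 exceeds the large minus small gap of 0.038 and the gap of 0.043 by bacterial counterpart. Staying within it therefore cannot show that these gaps held. No member was at least 1.2-fold higher or 1.5-fold different under any alternative. The count at least 1.2-fold lower was 5 as reported, against 8.89% of all genes. It was 3 with differences centred on the median gene (5.74% of all genes) or with 32 added to the linear value (7.26%). It was 2 after quantile normalization (5.22%) and 1 after removal of the loess trend (4.56%). With the 99th percentile of the negative controls as the floor it was 0 (2.70%). That floor left 6 members, 5 of them lower, against 54.0% of all genes. After removal of the loess trend the medians were -0.021 for all members, -0.010 for the large and -0.072 for the small subunit, -0.0043 for members with a bacterial counterpart and -0.057 for the rest. After quantile normalization they were -0.031, -0.018, -0.076, -0.012 and -0.068. Without a floor the median of all genes turned to 0.016, the small-subunit median was -0.065 and the large minus small difference turned to -0.025. With the 99th percentile floor the small-subunit median was -0.013, that of members with a bacterial counterpart -0.021, and the large minus small difference turned to -0.070. Fewer members passed that floor, and the cause of its counts and of the other shifts was not tested. Centring moved the share of members that were lower from 82.7% to 69.2%, the loess trend to 59.6% and quantile normalization to 61.5%. In the same order, the share of all genes moved from 63.5% to 50.0%, 49.6% and 52.1%. Setting values below the floor to the floor, chosen after seeing the data, left 4 members at least 1.2-fold lower (7.73% of all genes). The large minus small difference was then 0.0029.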
